A study of Mus musculus with 10 samples.

Results

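Cholesterol is made in nearly every cell from acetyl-CoA, and the genes of this route are switched together by the transcription factor SREBP2. The 8 genes described here are Srebf2, which encodes that factor, Insig1, which encodes a protein that holds it back, and the synthesis enzymes Hmgcs1, Idi1, Fdps, Fdft1, Sqle and Lss. They were looked up by symbol, and all 8 were found among the 43629 genes of the count table. Kidneys came from male UM-HET3 mice, a stock bred by crossing inbred strains, so that the animals were not genetically identical. The 6 control mice ate the standard diet, and in the 4 rilmenidine mice the diet carried 10 ppm of the drug for 1 month, begun when they were 3 months old, so that both groups were 4 months old. Rilmenidine is an oral drug against high blood pressure that binds imidazoline receptors. Each library is 1 kidney sample made with a protocol that reads the 3′ ends of polyadenylated RNA. In such bulk samples, fewer cells of a type and less RNA per cell cannot be told apart.

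As background, SREBP2 is made as a precursor in the membrane of the endoplasmic reticulum, bound to the escort protein SCAP. When sterols are plentiful, INSIG proteins retain the pair there, and when sterols fall, the pair moves to the Golgi, where proteases release the part that enters the nucleus. That part binds sterol response elements in promoters, usually beside bound NF-Y and SP1, and raises the synthesis enzymes, Insig1 and Srebf2 itself. In kidney, tubule cells use cholesterol in their folded membranes, and the mevalonate steps of the route also supply isoprenoids for dolichol, ubiquinone and protein prenylation.

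Promoter sequence was read for the genes of the set that RefSeq provides on GRCm38.p6, which were Srebf2, Insig1, Hmgcs1, Idi1 and Lss, 5 of the 8. Windows of 250 bases before the RefSeq start were searched on both strands for a short form of the sterol response element, TCACNCCAC, the CCAAT box, to which NF-Y binds, and the GC box GGGCGG, to which SP1 binds. Only the Hmgcs1 window held the sterol element in this form, against 1.05% of 32851 RefSeq windows, and it lay 137 to 129 bases before the start. A CCAAT box was present in all 5 windows, against 33.8% of the RefSeq windows, and a GC box in all 5, against 32.7%. In Idi1 all of these boxes lay in the last 105 bases of the window, which are inside the GENCODE gene. Matches of different motifs did not overlap in these windows. A missing match says only that these letters are not in the window. The promoters of 4 genes are shown, Hmgcs1 for its sterol element, Srebf2 and Insig1 as the regulators of the set and Lss as a late enzyme of the route, each cut where the RefSeq or the GENCODE transcript begins, whichever comes first. All are on the plus strand. Capitals mark the sterol element in Hmgcs1, and in all 4 the CCAAT and GC boxes read on either strand, so that a CCAAT box on the opposite strand appears as its reverse complement. Boxes in the bases left out are not shown.
Hmgcs1, chr13:119690101-119690350: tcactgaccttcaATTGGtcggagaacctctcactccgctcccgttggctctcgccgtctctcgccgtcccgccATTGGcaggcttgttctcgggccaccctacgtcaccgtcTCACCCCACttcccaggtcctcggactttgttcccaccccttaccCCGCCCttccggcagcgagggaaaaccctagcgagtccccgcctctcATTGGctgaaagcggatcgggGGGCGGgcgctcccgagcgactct
Insig1, chr5:28071162-28071362: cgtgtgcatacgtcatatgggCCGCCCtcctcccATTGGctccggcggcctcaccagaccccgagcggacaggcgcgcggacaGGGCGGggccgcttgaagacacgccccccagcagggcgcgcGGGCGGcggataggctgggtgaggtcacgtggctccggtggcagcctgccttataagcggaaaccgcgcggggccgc
Srebf2, chr15:82147019-82147180: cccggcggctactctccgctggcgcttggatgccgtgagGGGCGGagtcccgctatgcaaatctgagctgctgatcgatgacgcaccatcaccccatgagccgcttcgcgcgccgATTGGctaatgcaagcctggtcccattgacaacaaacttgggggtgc
Lss, chr10:76531355-76531587: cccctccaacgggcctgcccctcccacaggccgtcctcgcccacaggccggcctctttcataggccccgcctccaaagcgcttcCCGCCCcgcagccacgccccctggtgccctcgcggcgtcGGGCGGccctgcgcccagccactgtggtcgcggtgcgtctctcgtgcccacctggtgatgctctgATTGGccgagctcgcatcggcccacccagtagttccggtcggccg

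The libraries held 863605 to 2559118 counts in control kidneys and 1813465 to 3232063 in rilmenidine kidneys. All 3 markers of the thick ascending limb and all 7 of the proximal tubule were read in these libraries, and the summed level of the proximal tubule list was 39607 to 53861 CPM in control and 43820 to 66798 CPM in rilmenidine kidneys (CPM, each count relative to its library's reads in tested genes after RLE scaling). Most of this sum came from Kap, with 28005 to 170342 counts per library, whereas the next marker, Slc34a1, had 5478 to 20224. The adrenal gland lies against the kidney, and its cortex makes cholesterol for steroids with the same genes. The cortex list of 8 markers summed to 1.12 to 10.2 CPM in control and 3.44 to 13.6 CPM in rilmenidine kidneys, with at most 13 counts of any marker in a library, and Th, Dbh, Pnmt and Chga of the adrenal medulla were at 0. The 6 liver markers summed to 2.24 to 31.8 CPM in control and 7.54 to 26.6 CPM in rilmenidine kidneys, although the extraction text of the labels speaks of liver. Other lists stood higher. The fat list summed to 69.1 to 192 CPM in control and 55.9 to 125 CPM in rilmenidine kidneys. For the immune list the sums were 46.5 to 204 and 107 to 121 CPM. For the red cell list they were 980 to 8803 and 2874 to 4115 CPM. The part of such cells in the levels of the 8 genes was not tested. The libraries also differed in the nuclear RNA Malat1. For Malat1 and the receptor genes named next, CPM are relative to all counts of the library, without RLE scaling. Its level was 285 and 373 CPM in 2 control kidneys, 1201 to 2210 CPM in the other 4 and 288 to 390 CPM in rilmenidine kidneys. In 7 libraries, 5 control and 2 rilmenidine, the genes of olfactory and vomeronasal receptors took at least 10 CPM, and in the other 3 they took 4.27 to 8.99 CPM.

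The depth behind the 8 genes was uneven. Over the 10 libraries together, Hmgcs1 had 3275 counts, Insig1 1144, Sqle 618, Srebf2 594 and Lss 407, whereas Fdft1 had 93, Fdps 82 and Idi1 37. A gene was tested when at least 7 of the 10 libraries held at least 6 reads, and 6 of the 8 genes passed. Fdps reached 6 reads in 5 libraries and Idi1 in 2, and these genes were not tested. For 2 of the 3 genes with few counts, Fdps and Idi1, the annotation places other transcripts with a like sequence at the end that the protocol reads. For Fdft1 it places a transcript of the opposite strand over that end. The last 300 bases of Fdps matched 7 other annotated genes at 90% identity or more over at least 100 bases, among them the processed pseudogene Gm3571 with 99.3% identity. Another was Gm43738, annotated as protein-coding, which overlaps Fdps by 7512 bases on the same strand and had 0 counts. Together the 7 genes had 4 counts. The end of Idi1 matched 2 processed pseudogenes, Gm13502 at 100% and Gm35570 at 98.6%, with 2 counts together. The end of Fdft1 overlapped the end of Ctsb, the gene of a lysosomal protease on the opposite strand, by 774 bases, and Ctsb had 17125 counts. Srebf2, Insig1, Hmgcs1 and Sqle had no such match, and Lss matched an antisense RNA, 4930483K19Rik, that had 0 counts. Counts of Fdps, Fdft1, Idi1 and Lss are therefore uncertain, since the counting could divide or drop reads that fit several genes, and its part in their low counts was not tested.

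Whether rilmenidine changed the set was tested gene by gene. Of the 6 genes tested, 0 had an adjusted p-value under 0.05 in the edgeR quasi-likelihood test (Benjamini-Hochberg adjustment), as did 0.0% of all 10055 genes tested. Other fits called 0 of the set as well, where they called 0.874% of all genes with a looser filter, 0.778% with DESeq2, 0.438% with the likelihood ratio test and 0.0298% with a replicate block. At an unadjusted p-value under 0.05 the count was 0 of 6, against 10.6% of all genes, 4.43% higher and 6.13% lower. The log2 fold change, rilmenidine over control, was above 0 for 3 of the 6, against 50.3% of all genes, and below 0 for 3. Its median was 0.01, against 0.00 for all genes tested. In none of the 8 genes did the kidneys of the groups separate completely, as they did for 1.67% of all genes tested.

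Srebf2 (ENSMUSG00000022463) lies on chromosome 15 of GRCm38 from 82147181 to 82205379 and holds the microRNA gene Mir33, for which the table lists 0 counts, in its span. Srebf2 was at 20.1 CPM in the lowest, 31.9 in the median and 40.1 in the highest control kidney. It was at 19.1, 38.6, 29.0 and 35.3 CPM in rilmenidine kidneys 1 to 4. Rilmenidine kidney 1 was the lowest of all 10, and the other 3 lay inside the control range. The means were 31.3 ± 6.57 (SD, n = 6) and 30.5 ± 8.55 (SD, n = 4), and the log2 fold change was −0.03 (SE 0.21). The 95% interval, −0.47 to 0.42, spans a level from 0.720 to 1.34 times that of control.

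Insig1 (ENSMUSG00000045294; chromosome 5, 28071363 to 28078662) encodes the retention protein and is itself a target, and it is widely used as a readout of SREBP2. Its level ran from 46.5 CPM in the lowest control kidney through a median of 50.2 to 90.9 in control kidney 1. The rilmenidine kidneys were at 48.7, 61.9, 92.7 and 51.8 CPM. In each group 1 kidney stood high, control 1 and rilmenidine 3, and the remaining 8 kidneys lay between 46.5 and 61.9 CPM. The log2 fold change was 0.18 (SE 0.21), and it depended on these animals. It was 0.33 without control kidney 1 and −0.07 without rilmenidine kidney 3. The 7 libraries with at least 10 CPM of receptor genes again leave out rilmenidine kidney 3, and kidney 4 with it. Within them the log2 fold change was −0.07.

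Hmgcs1 (ENSMUSG00000093930; chromosome 13, 119690379 to 119708260) encodes a synthase at the start of the mevalonate route and had the most counts of the set. Control kidneys lay between 144 and 212 CPM with a median of 183. Rilmenidine kidneys lay at 123, 128, 195 and 184 CPM, so that kidneys 1 and 2 were below every control kidney and kidneys 3 and 4 were inside their range. The means were 183 ± 25.3 (SD, n = 6) and 158 ± 37.3 (SD, n = 4). The log2 fold change was −0.21, with a 95% interval of −0.54 to 0.12 (SE 0.16, edgeR adjusted p-value 0.673). Rilmenidine kidneys 1 and 2 are those with at least 10 CPM of receptor genes, and kidneys 3 and 4 had 4.27 and 7.43 CPM. Within the 7 libraries with at least 10 CPM the log2 fold change was −0.61 (edgeR p-value 0.00266 before and 0.318 after adjustment). With log2 Malat1 as a covariate it was 0.02. The part of either measure in the level of Hmgcs1 was not tested.

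The next enzymes make and join isoprene units. Idi1 (ENSMUSG00000058258; chromosome 13, 8885501 to 8892451), which interconverts the isomers of isopentenyl diphosphate, had 0 to 8 counts per library. Its level in control kidneys was 0.830 to 4.49 CPM, and in rilmenidine kidneys 0, 1.63, 2.8 and 2.5 CPM. A count of 0 in rilmenidine kidney 1 allows up to 1.74 CPM (3 counts), which lies inside the control range. Fdps (ENSMUSG00000059743; chromosome 3, 89093588 to 89101959), which joins these units to farnesyl diphosphate, was at 1.49 to 8.19 CPM in control and at 1.16, 7.06, 5.6 and 2.5 CPM in rilmenidine kidneys. Without the filter on low counts, the log2 fold changes were −0.18 for Idi1 (SE 0.91) and −0.04 for Fdps (SE 0.55). The 95% intervals, −1.96 to 1.6 and −1.11 to 1.04, are wide, so that no difference was detectable at this depth. The 2 control kidneys with low Malat1 had 6.59 and 8.19 CPM of Fdps, and the other 4 had 1.49 to 3.37 CPM. Among the 6 libraries with Malat1 under 500 CPM, 2 control and 4 rilmenidine, the log2 fold change of Fdps was −0.86 (edgeR p-value 0.166 before adjustment). This subset was chosen after seeing the data. All libraries in which Fdps reached 6 reads are in it, so Fdps passed the filter there and not over all 10 libraries.

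Fdft1, Sqle and Lss take farnesyl diphosphate to lanosterol, the first sterol. Fdft1 (ENSMUSG00000021273; chromosome 14, 63145150 to 63179578), the squalene synthase, was at 2.97 to 5.81 CPM in control kidneys with a median of 5.43. The rilmenidine kidneys were at 8.70, 3.8, 3.85 and 4.37 CPM. Kidney 1 was the highest of all 10 and the other 3 were below the control median. The log2 fold change of 0.05 (SE 0.35) was −0.27 without rilmenidine kidney 1, and 0.39 within the 7 libraries with at least 10 CPM of receptor genes.

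Sqle (ENSMUSG00000022351; chromosome 15, 59315077 to 59331192) encodes squalene epoxidase, which adds the first oxygen, and had the largest difference of the 6 tested genes. Control kidneys were at 18.0 CPM in the lowest, 29.4 in the median and 35.7 in the highest. Rilmenidine kidneys were at 19.7, 45.1, 47.6 and 35.9 CPM. Kidneys 2, 3 and 4 lay above every control kidney, kidney 4 by a narrow margin, and kidney 1 lay near the lowest control kidneys, 1 and 6. The means were 27.1 ± 7.39 (SD, n = 6) and 37.1 ± 12.6 (SD, n = 4). The log2 fold change was 0.46, with a 95% interval of −0.05 to 0.98 (SE 0.25, edgeR p-value 0.0739 before and 0.524 after adjustment). Without rilmenidine kidney 1 the log2 fold change was 0.66 (edgeR p-value 0.00766 before and 0.430 after adjustment), and without rilmenidine kidney 3 it was 0.32. Within the 7 libraries with at least 10 CPM of receptor genes, which leave out rilmenidine kidneys 3 and 4, it was 0.15.

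Lss (ENSMUSG00000033105; chromosome 10, 76531588 to 76557138), is the cyclase that folds the epoxide into lanosterol. Its level was 15.6 to 25.8 CPM in control kidneys, with a median of 22.5, and 16.2, 19.0, 22.7 and 22.8 CPM in rilmenidine kidneys. All 4 lay inside the control range. The log2 fold change was −0.10 (SE 0.19), with a 95% interval of −0.51 to 0.31, and it was −0.27 within the 7 libraries with at least 10 CPM of receptor genes.

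**Figure D1:**
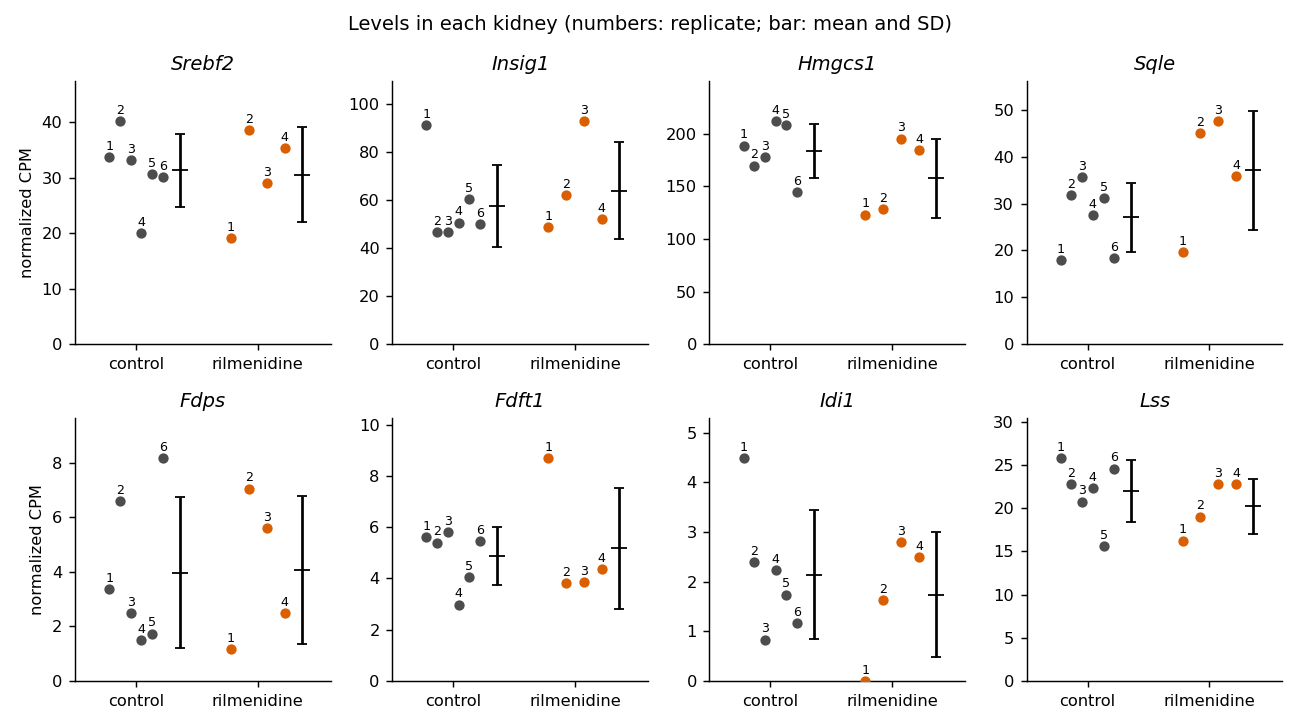
Normalized CPM of the 8 genes in each of the 10 kidneys, with 1 panel per gene and axes from 0. Points are kidneys labelled by replicate number, and bars give the mean and SD. Rilmenidine kidney 1 is the lowest point for Srebf2, Hmgcs1, Fdps and Idi1 and the highest for Fdft1, at 8.70 CPM.

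The spread among control kidneys was set beside the spread that the counting of reads alone would give. The coefficient of variation of Insig1 over the 6 control kidneys was 29.8%, where counting alone gives 11.1%, and that of Hmgcs1 was 13.8%, against 6.19%. For Sqle the values were 27.3% and 16.1%, and for Srebf2 21.0% and 15.0%. In these genes the observed spread exceeded that of counting. Lss, at 16.3% against 17.9%, and Fdft1, at 23.0% against 37.9%, did not exceed counting error. Idi1 was at 60.6% against 57.3%, and Fdps at 69.7% against 42.0%.

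**Figure D2:**
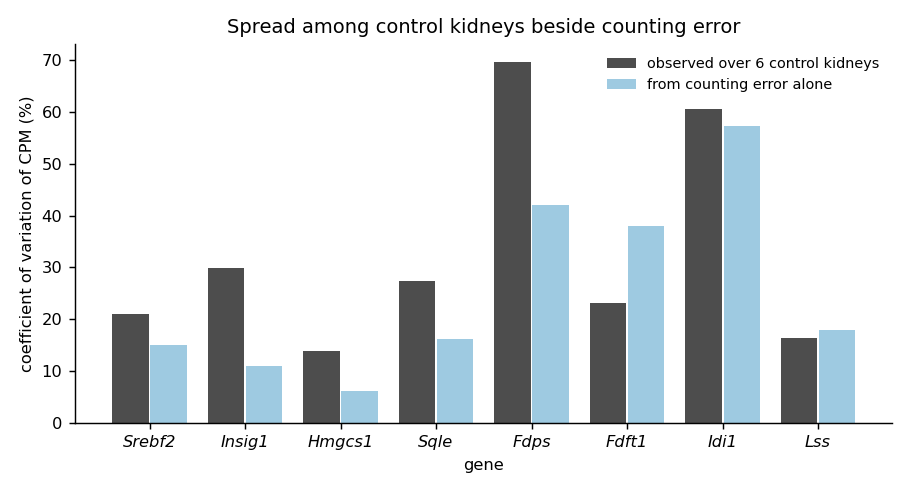
Coefficient of variation of normalized CPM over the 6 control kidneys for each of the 8 genes (dark bars) beside the value that counting error alone would give at the depth of these libraries (light bars). The dark bar is higher than the light one for Insig1, at 29.8% and 11.1%, and lower for Fdft1, at 23.0% and 37.9%.

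The other genes of sterol metabolism were taken from lists by role. Of 73 genes in 9 lists, 67 were tested and 0 passed an adjusted p-value of 0.05 in either direction by edgeR. Before adjustment, p was under 0.05 for 2 genes that were higher and 2 that were lower, 5.97% of the 67 against 10.6% of all genes tested. The median log2 fold change over the 67 genes was 0.05.

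Among the remaining mevalonate enzymes, 4 of 5 were tested, and 3 were above 0 and 1 below. Mvd, which makes isopentenyl diphosphate, was at −0.07. All 10 enzymes that take lanosterol to cholesterol were tested, 6 above 0 and 4 below, with a median of 0.03. Ebp, the sterol isomerase, had 0.29 (SE 0.14, edgeR unadjusted p-value 0.0551), with 3 of 4 rilmenidine kidneys above all control kidneys. Hsd17b7, a ketoreductase of the same steps, had −0.27. In the isoprenoid branch, where 7 of 8 genes were tested, Pdss2, a subunit of the enzyme that makes the ubiquinone side chain, had 0.32 and Pggt1b, a prenyltransferase subunit, −0.32.

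The 11 genes of SREBP control were all tested, with 6 above 0, 5 below and a median of 0.01. For Rnf139, a ubiquitin ligase of the endoplasmic reticulum, the log2 fold change was −0.36 (SE 0.14). Its rilmenidine kidneys were at 39.4, 33.7, 37.1 and 41.2 CPM, of which 3 lay below all control kidneys, at 40.4 to 54.4 CPM. The adjusted p-value was 0.385 by edgeR. Of 5 further SREBP2 targets, 4 were above 0 and 1 below, with a median of 0.24. Mmab, an enzyme of cobalamin metabolism that is transcribed next to Mvk, had 0.39 (SE 0.19, edgeR unadjusted p-value 0.0487), and Aacs, which makes acetoacetyl-CoA, −0.01. In the fatty acid branch that SREBP1 controls, 11 of 13 genes were tested, 5 above 0 and 6 below, with a median of −0.01. Scd2, a desaturase, was at −0.43 (SE 0.19, adjusted p-value 0.441 by edgeR) and Me1, which makes NADPH, at 0.29.

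LXR senses oxysterols and raises efflux when cholesterol is high. Of its 7 genes, 6 were tested, 4 above 0 and 2 below. Mylip, a ligase that removes lipoprotein receptors, had 0.48 (SE 0.27) and Abca1, the cholesterol efflux pump, −0.21. Of 10 genes for sterol traffic, 9 were tested, 7 above 0 and 2 below. Npc2, which takes part in moving cholesterol out of the lysosome, had the smallest p-value of the 67 genes. It was at 51.3 to 89.7 CPM in control kidneys and at 117, 97.2, 88.9 and 78.7 CPM in rilmenidine kidneys, where 2 lay above all control kidneys. Its log2 fold change was 0.44 (SE 0.17, edgeR p-value 0.0192 before and 0.368 after adjustment). Gramd1b, a carrier from the plasma membrane, was at −0.15. All 4 genes of NF-Y and SP1 were below 0, among them Nfyc with −0.33 (SE 0.20), and 0 of them had an unadjusted p-value under 0.05.

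Several of these values changed in fits that used the measures on which the libraries differed. The 7 libraries with at least 10 CPM of receptor genes keep only rilmenidine kidneys 1 and 2. Of the treated kidneys, these had the lowest Gramd1b, at 104 and 136 CPM, and the highest Npc2, at 117 and 97.2 CPM. Within the 7 libraries Gramd1b was at −0.75 (edgeR p-value 0.00214 before adjustment) and Npc2 at 0.70 (edgeR p-value 0.00388 before adjustment). After adjustment 0 of all genes passed in this fit. Nfyc was at −0.54 there, Scd2 at −0.13, Ebp at 0.14 and Me1 at 0.06. With log2 Malat1 as a covariate Npc2 was at 0.16 (edgeR p-value 0.398 before adjustment), Mmab at 0.14, Mylip at 0.22 and Pdss2 at 0.10. With log2 library size as a covariate Mmab was at 0.09 (edgeR p-value 0.675 before adjustment). Rnf139 lay between −0.48 and −0.39 in these settings. The part of these measures in the levels was not tested.

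**Figure D3:**
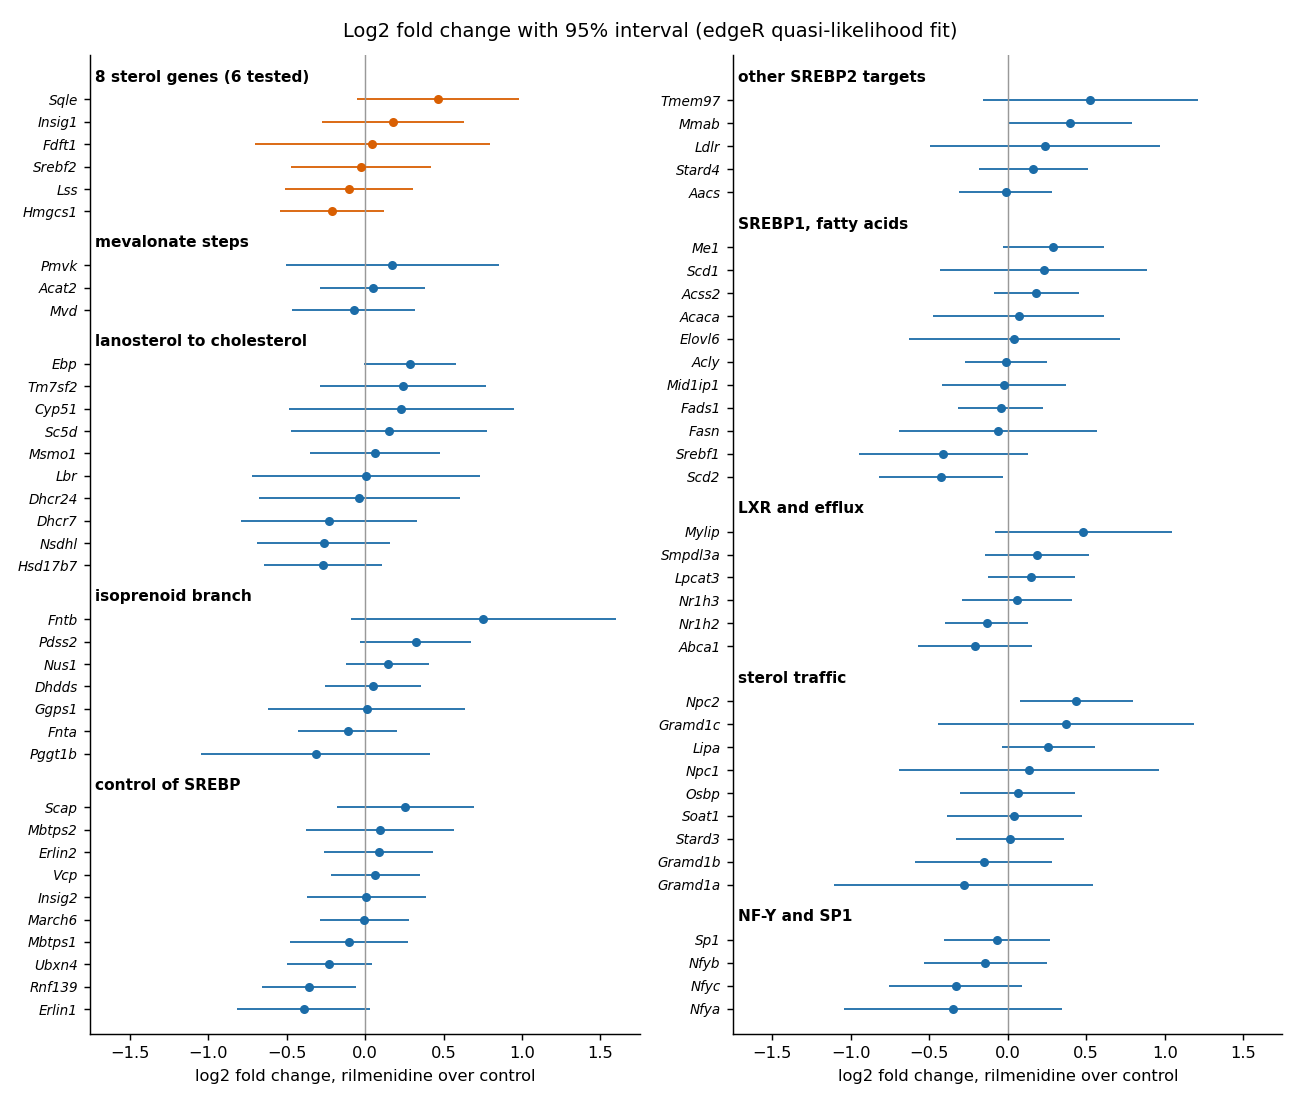
Log2 fold change, rilmenidine over control, of the 6 tested genes of the set (orange) and of other tested sterol genes (blue), grouped by role, with 95% intervals from the edgeR quasi-likelihood fit. The highest value, 0.75 for Fntb, has an interval that includes 0, and 0 of these genes passed an adjusted p-value of 0.05.

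Whether the set moved together from kidney to kidney was asked over all 10 animals. Pearson's r of log2 CPM was computed for each of the 28 pairs with a permutation test of 100000 resamples, and p-values were adjusted over the 28 pairs. The median r was 0.20, and 19 pairs were above 0. Over the 50546485 pairs of all tested genes the median was 0.00. An r over 0.5 was found in 17.9% of the 28 pairs and in 10.1% of all pairs. All 5 such pairs of the set contained Idi1 or Fdps, the genes with the fewest counts, and among the 15 pairs of the 6 tested genes the highest r was 0.40 and the median 0.13. An unadjusted p-value under 0.05 was reached by 3 pairs, and after adjustment the smallest was 0.371 for r and 0.537 for Spearman's rho in the permutation tests. No pair therefore passed.

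The highest r was that of Hmgcs1 and Idi1, at 0.65 (permutation p = 0.0391, adjusted 0.371), with a rho of 0.59 (permutation p = 0.0814, adjusted 0.537). Without the 2 kidneys farthest from the median of Hmgcs1 the r was 0.39. Srebf2 and Fdps had an r of 0.65 (permutation p = 0.0417, adjusted 0.371) and a rho of 0.55 (permutation p = 0.106, adjusted 0.537), and the r was 0.19 without the 2 kidneys farthest from the median of Srebf2. Srebf2, the activator, and Insig1, its target and retainer, had an r of 0.14 (permutation p = 0.748, adjusted 0.775) and a rho of 0.01 (permutation p = 1.00, adjusted 1.00). Their r was −0.38 without the 2 farthest kidneys. At the other end, Fdft1 had an r below 0 with all 7 other genes, the lowest with Idi1 at −0.59 (permutation p = 0.0731, adjusted 0.371), with a rho of −0.37 (permutation p = 0.296, adjusted 0.828). That r was −0.10 without the 2 kidneys farthest from the median of Fdft1. Over the 6 control kidneys alone, the r of Fdft1 was above 0 with Srebf2 (0.85), Fdps (0.66), Lss (0.37) and Insig1 (0.12). It was below 0 there with Hmgcs1 (−0.71), Sqle (−0.20) and Idi1 (−0.09). Centred on the mean of each group, the median r of the 28 pairs was 0.22, and over the 6 control kidneys alone it was 0.07.

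**Figure D4:**
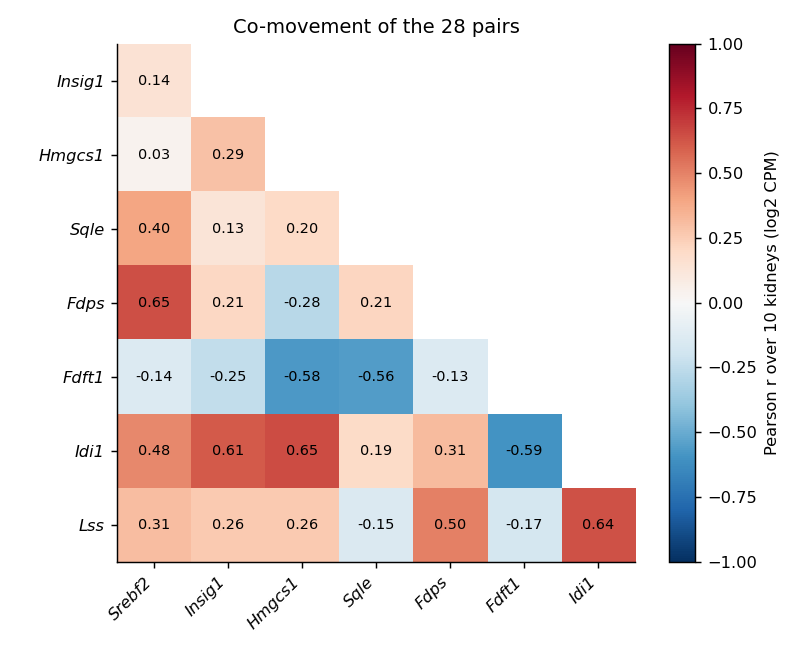
Pearson's r of log2 CPM over the 10 kidneys for each of the 28 pairs, with the value printed in each cell and a colour scale from −1 to 1. The row and column of Fdft1 are blue throughout, and the darkest red cells are those of Idi1 and Fdps with other genes, up to 0.65.

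The median r of 0.20 had a jackknife error of 0.20 (each kidney left out in turn), and it depended on rilmenidine kidney 1. This kidney was the lowest of the 10 for Srebf2, Hmgcs1, Fdps and Idi1, 4 of the 8 genes, and the highest for Fdft1. Of all tested genes, it was the lowest for 11.4%, a share that does not cover Fdps and Idi1, which were not tested. Its ranks rest on 2 counts for Fdps, 0 for Idi1 and 15 for Fdft1. Srebf2 was at 19.1 CPM there, against 20.1 in the lowest control kidney. Without rilmenidine kidney 1 the median r of the 28 pairs was 0.01, and without any other single kidney it lay between 0.10 and 0.23. The mean of the standardized levels of the 8 genes was −1.09 SD in this kidney, and between −0.41 and 0.65 SD in the other 9. Rilmenidine kidney 3 had the highest mean, 0.65 SD, with the highest Insig1 and Sqle, and control kidney 1 the next, 0.60 SD. The treated group therefore held both the lowest and the highest kidney of the set.

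**Figure D5:**
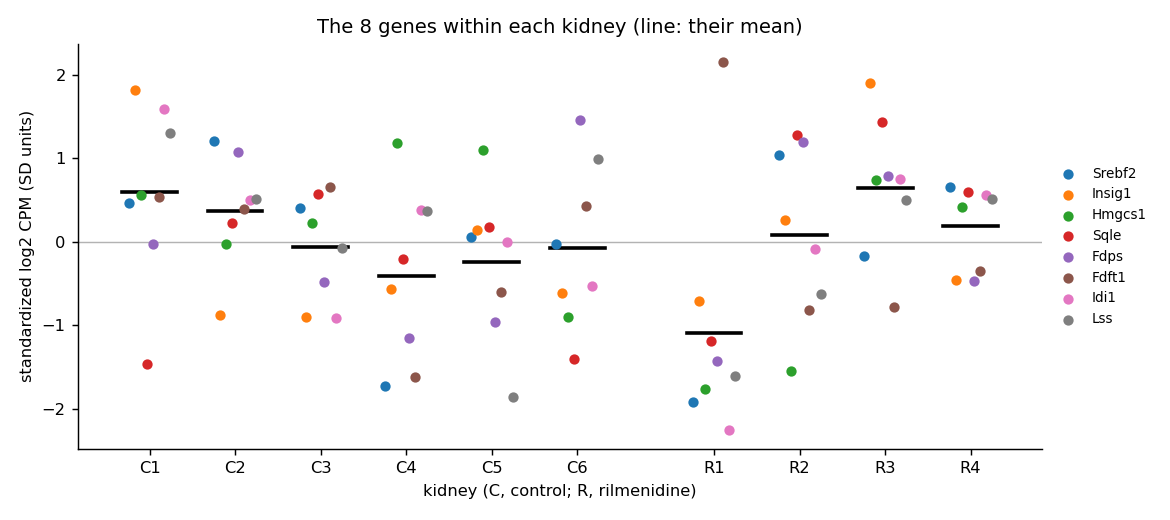
Log2 CPM of the 8 genes, standardized over the 10 kidneys and given in SD units, for control kidneys C1 to C6 and rilmenidine kidneys R1 to R4. Points are genes and the black line is their mean. The mean is lowest in R1, at −1.09 SD, where Fdft1 alone is high, and highest in R3, at 0.65 SD.

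Idi1 and Srebf2 had the highest r with the mean of the other 7 genes over the 10 kidneys, 0.74 and 0.58, and Fdft1 the lowest, −0.55. Idi1 had only 0 to 8 counts per library. Its coefficient of variation in control kidneys, 60.6%, was close to the 57.3% of counting alone, and that of Fdft1, 23.0%, was below its 37.9%. Outside the set, the 6 tested genes whose log2 CPM had the highest r with the mean standardized level of the 8 genes were Dpysl3 (0.92), Diablo (0.91), Gsdme (0.91), Rpl39 (0.90), Slc44a1 (0.89) and Dpp4 (0.89), over the 10 kidneys. They were picked as the highest of all tested genes, which share libraries and depth with the set, and no test was applied. Their log2 fold changes lay between −0.09 and 0.12.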

How the data were processed

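Kidney RNA of 6 control and 4 rilmenidine mice was measured, with groups and replicate numbers taken from the labels. The study's methods name more control kidneys than these, which are not analysed here. The authors deposited raw counts per Ensembl gene, made by trimming with Trimmomatic 0.32, mapping with STAR 2.5.2b and counting with featureCounts 1.5. The submitters' processing notes name mm10. Strand setting and handling of molecular identifiers are not given in the sources used here, and counting errors cover reads, not molecules.

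From these counts, genes that reached 6 reads in 7 or more of the 10 libraries were normalized by RLE and fitted with edgeR 4.0.16 (quasi-likelihood test, no covariates, Benjamini-Hochberg over 10055 genes, threshold 0.05) under R 4.3.3. CPM are scaled by RLE, and log2 CPM use a prior count of 2. Standard errors were computed from the fitted means and quasi-dispersions. Correlations were tested by random permutation of the kidneys, with ranks and adjustment from scipy 1.17.1. Copies were sought with blastn 2.17.0 in GENCODE M21 transcripts, which also gave positions. Alternatives were TMM, other filters, DESeq2 1.42.0, the likelihood ratio test, covariates, a replicate block, subsets of libraries and leaving out each kidney.

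Genes named were all 8 of the set, for each sterol list the lowest p-value above and below 0, and the 6 genes most like the set. Some genes that the rule names are not reported here, though the counts over lists include them. The gene set and lists were chosen with earlier results of these data known. Whether kidneys were taken from separate litters or days is not given. The p-values treat the animals as independent and cannot take account of a shared litter or day.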

Additional observations from a re-analysis of the deposited data

Results flagged for a closer look

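For each of the 8 genes, the control group and the rilmenidine group were searched for a kidney far from the others, 16 groups in all, of which chance would mark about 5%. In 2 of them a kidney stood apart. Insig1 was at 90.9 CPM in control kidney 1, where the other control kidneys lay between 46.5 and 60.2 CPM. Fdft1 was at 8.7 CPM in rilmenidine kidney 1, where the other rilmenidine kidneys lay between 3.8 and 4.37 CPM, and this value rests on 15 reads.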

How the results depend on the processing

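The count of the 8 genes past an adjusted p-value of 0.05 was 0 under all alternatives run, and so was that of the 67 other sterol genes tested. The count over all genes was 0 in the main fit and moved to 241 with genes of at least 1 count kept, to 60 with DESeq2, to 44 with the likelihood ratio test, and to between 0 and 37 without single kidneys. With the replicate number as a block it was 3. Same-numbered kidneys did not deviate together (r from −0.08 to 0.08, and no rilmenidine kidney correlated best with its own number). The highest r of a rilmenidine kidney with any control kidney was itself low, 0.15 to 0.19. Whether the same number stands for a shared litter or day can therefore not be told from these values. Of 459 values for single genes, 430 kept their direction and 29 changed sign, all of them without a call. With log2 Malat1 as a covariate these were Hmgcs1 (0.0195), Fdft1 (−0.12), Mvd (0.0216), Abca1 (0.0850) and Gramd1b (0.0693). In the 6 libraries with Malat1 under 500 CPM, an alternative chosen after seeing the data, they were Hmgcs1 (0.0144), Fdft1 (−0.10), Abca1 (0.11), Gramd1b (0.10) and Nfyc (0.0692). In the 7 libraries with at least 10 CPM of receptor genes they were Insig1 (−0.0719), Pggt1b (0.11) and Aacs (0.0175), with the replicate block Mvd (0.0321) and Aacs (0.0124), and with log2 library size Pggt1b (0.0232). Without single kidneys the ranges were −0.0720 to 0.0692 for Aacs, −0.14 to 0.13 for Srebf2, −0.27 to 0.17 for Fdft1, −0.11 to 0.0143 for Mvd, −0.38 to 0.0233 for Gramd1b and −0.0668 to 0.33 for Insig1. The median log2 fold change of the set stayed between −0.10 and 0.07. Depth limits Fdps, Idi1 and Fdft1.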

Other observations

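The level of each of the 8 genes was also compared with the log2 total count of its library over the 10 kidneys. None of the 8 relations passed, with a smallest adjusted p-value of 0.974 for Pearson's r and 0.90 for Spearman's rho in permutation tests. The highest r was that of Sqle, at 0.40 (permutation p = 0.253), with a rho of 0.50 (permutation p = 0.142), and without the 2 libraries farthest from the median total it was 0.06. For Insig1 the r was −0.07 (permutation p = 0.852), with a rho of 0.21 (permutation p = 0.562), and without the 2 farthest libraries it was 0.66, so the value rests on control kidney 1 and rilmenidine kidney 4, the smallest and the largest library.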
